A study of Mus musculus with 4 samples.

Results

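The EphB receptors are the genes *Ephb1*, *Ephb2*, *Ephb3*, *Ephb4* and *Ephb6*, and their rows were found in the deposited gene count lists by matching the Ensembl identifiers to these symbols in GENCODE mouse release M21. All 5 receptors had a single row each among the 55573 genes listed. The lists came from RNA sequencing of sorted tdTomato-positive cells at embryonic day 16 (fluorescence-activated cell sorting), with 2 *Dnmt1* WT and 2 *Dnmt1* KO libraries. Embryos of both genotypes carried the *Hmx3-Cre* driver, which is active in post-mitotic cells of the preoptic area (POA), on a C57BL/6J background, and the *tdTomato* reporter that marks cells with Cre activity. KO embryos additionally carried the *Dnmt1* loxP2 allele, from which Cre removes a pair of exons and leaves a null allele in *Hmx3*-expressing cells and their progeny. The paper names the POA as the dissected tissue and the labels name the basal telencephalon. Cells were pooled from 12 WT and 6 KO embryos. The labels call the libraries biological replicates and the paper calls them technical duplicates of pooled samples, so that SDs and p-values here measure the spread between libraries, which may be technical.

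Eph receptors are receptor tyrosine kinases that are activated by ephrins on the surface of a neighbouring cell. The B class binds mainly the transmembrane ephrin-B ligands, and signals run both into the receptor cell (forward) and into the ligand cell (reverse). In the developing forebrain this contact signalling steers axons and migrating neurons, including interneurons, mostly by repulsion. EPHB4 is best known from venous endothelium, and EPHB6 lacks kinase activity of its own.

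Library totals ranged from 8075102 to 9995968 counts. Mitochondrial and rRNA genes made up 10.3% of WT replicate 1, which stood apart, and 2.05% to 2.87% of the other libraries. The targeted gene *Dnmt1* was at 416 ± 43.4 CPM in WT libraries and at 282 ± 1.59 CPM in KO libraries (SD, n = 2 each). CPM are counts per 1e+06 counts after TMM scaling. The log2 fold change of *Dnmt1* was -0.56. It narrowly missed the threshold of 0.05 (edgeR adjusted p = 0.0511) and passed as lower with DESeq2 and limma-voom. The counts of *Dnmt1* include exons outside the deleted part, so that they do not measure the deletion itself. Of the interneuron label's own markers, *Hmx3* was at 78.6 and 90.0 CPM in WT and at 71.8 and 93.7 CPM in KO, and all 10 markers of GABAergic POA interneurons were above 0 in every library. Their summed level was 1569.6 and 1417 CPM in WT and 1212 and 1338 CPM in KO, with a median log2 fold change of -0.25, while 0 of 10 passed in edgeR, DESeq2 or limma-voom and 2 were lower at an unadjusted p under 0.05. Markers of oligodendrocyte precursors were also present in WT, with a sum of 1283 and 1339 CPM, against 1631 and 1707 CPM in KO (1 of 5 higher). Most of the WT sum came from *Pdgfra* (733 and 719 CPM) and *Cspg4* (252 and 263 CPM), which is also on the mural list. Such sums are not divided by gene length and do not compare the numbers of cells of each type. Counts of called genes are read against all 16832 genes tested, of which 7.33% were higher and 0.570% lower in KO at an adjusted p of 0.05 by edgeR, and 14.6% higher and 8.01% lower (22.7% in all) at an unadjusted p under 0.05. With DESeq2 7.40% were higher and 1.47% lower, and with limma-voom 7.21% and 0.594%. The summed level of 12 astrocyte markers was 281 to 295 CPM in WT and 4126 to 4297 CPM in KO, with *Gfap* at 0 counts in both WT libraries, and all 12 were higher in KO by the test described beside the receptors. Higher in KO were also 8 of 9 oligodendrocyte and 1 of 7 microglia markers tested (0 of 7 with limma-voom), whereas 2 of 8 general neuron markers and 1 of 4 glutamatergic markers were lower. In sorted bulk samples a change in the number of cells of a type and a change in the RNA per cell cannot be told apart.

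The receptor genes lie on different chromosomes of GRCm38. *Ephb1* (ENSMUSG00000032537) spans chromosome 9 from 101922128 to 102354693 on the minus strand, and *Ephb2* (ENSMUSG00000028664) spans chromosome 4 from 136647539 to 136835988 on the minus strand. *Ephb3* (ENSMUSG00000005958) spans chromosome 16 from 21204755 to 21223305, *Ephb4* (ENSMUSG00000029710) chromosome 5 from 137350109 to 137378669, and *Ephb6* (ENSMUSG00000029869) chromosome 6 from 41605482 to 41620509, all 3 on the plus strand. The family is similar in protein structure but not in read-length sequence. Of the distinct 50-base stretches in their annotated transcripts, 0% of those of *Ephb4* and *Ephb6*, 0.118% of those of *Ephb3*, 0.221% of those of *Ephb2* and 1.55% of those of *Ephb1* also occurred in a transcript of another gene, and no receptor shared such a stretch with another receptor. For *Ephb1* the shared stretches were those of *Gm26846*, a long non-coding RNA gene on the opposite strand.

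DNMT1 copies methyl groups onto CpG sites of newly made DNA, so the CpG sites in front of the receptor genes are shown for the 2 receptors that rose in KO, *Ephb3* and *Ephb4*, and for the receptors with the fewest and the most CpG sites, *Ephb1* and *Ephb6*. The stretches come from the RefSeq promoter table (GRCm38.p6), in which all 5 receptors were matched. They begin 250 bases before the RefSeq start and end before the first annotated transcribed base of RefSeq or GENCODE. Positions are chr16:21204545-21204754 on the plus strand, chr5:137349859-137350108 on the plus strand, chr9:102354694-102354943 on the minus strand and chr6:41605261-41605481 on the plus strand. Capitals mark the letters CG, which read the same on both strands.
Ephb3: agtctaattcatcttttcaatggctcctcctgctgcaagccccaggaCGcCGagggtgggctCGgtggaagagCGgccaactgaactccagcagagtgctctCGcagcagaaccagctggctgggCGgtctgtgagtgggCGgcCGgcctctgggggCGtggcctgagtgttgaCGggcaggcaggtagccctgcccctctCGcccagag
Ephb4: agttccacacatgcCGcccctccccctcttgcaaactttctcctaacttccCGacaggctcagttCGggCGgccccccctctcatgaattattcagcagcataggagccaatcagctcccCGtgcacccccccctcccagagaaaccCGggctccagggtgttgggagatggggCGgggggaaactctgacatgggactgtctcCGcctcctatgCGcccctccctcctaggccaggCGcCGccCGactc
Ephb1: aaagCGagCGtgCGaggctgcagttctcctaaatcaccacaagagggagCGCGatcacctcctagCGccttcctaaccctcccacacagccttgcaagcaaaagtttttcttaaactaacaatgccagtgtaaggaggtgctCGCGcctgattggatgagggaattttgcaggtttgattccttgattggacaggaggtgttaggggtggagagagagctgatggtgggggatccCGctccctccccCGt
Ephb6: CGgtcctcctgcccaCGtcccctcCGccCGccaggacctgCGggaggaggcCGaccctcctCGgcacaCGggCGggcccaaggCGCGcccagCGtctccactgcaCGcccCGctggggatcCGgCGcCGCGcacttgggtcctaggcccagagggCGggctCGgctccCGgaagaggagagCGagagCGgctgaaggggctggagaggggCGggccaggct

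Over the full 250 bases before the RefSeq start, *Ephb6* had 27 CpG sites, *Ephb2* 20, *Ephb3* 16, *Ephb4* 12 and *Ephb1* 10. The median over 32841 promoters of the table was 6, and 92.1% of them held at least 1 CpG site. All 5 receptors were thus above the median. As many CpG sites as in *Ephb6* or more were found in 8.57% of the promoters, against 18% for *Ephb2*, 25.4% for *Ephb3*, 33.5% for *Ephb4* and 37.8% for *Ephb1*. The observed CpG number relative to that expected from base composition was 0.74 in *Ephb6*, 0.69 in *Ephb2*, 0.60 in *Ephb3*, 0.55 in *Ephb1* and 0.50 in *Ephb4*. The receptors that rose in KO thus lay between the others in CpG number. The methylation of these sites was not analysed here.

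**Figure D1:**
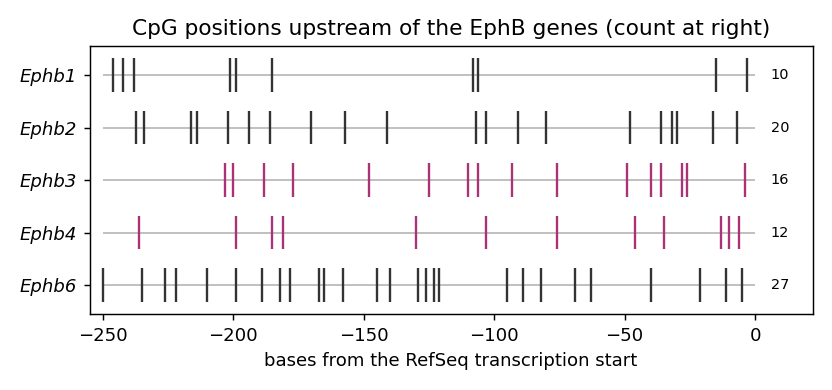
Positions of CpG sites in the 250 bases before the RefSeq transcription start of each EphB gene. The horizontal axis gives the distance from the start in bases, each vertical stroke is a CpG site, purple strokes mark *Ephb3* and *Ephb4*, and the number at the right is the count, from 10 in *Ephb1* to 27 in *Ephb6*.

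To compare the receptors with each other, counts were divided by the length of each gene's annotated exons and scaled to a sum of 1e+06 per library (transcripts per 1e+06, TPM). *Ephb2* was the most abundant receptor in every library, with 69.7 and 90.4 TPM in WT and 69.7 and 79.3 TPM in KO. *Ephb6* had 34.7 and 53.1 TPM in WT and 41.8 and 44.1 TPM in KO. *Ephb1* had 31.2 and 37.0 TPM in WT and 39.2 and 40.3 TPM in KO. *Ephb6* and *Ephb1* were neighbours in this order, and their WT libraries overlapped. *Ephb3* had 18.4 and 25.6 TPM in WT, below both *Ephb1* libraries, and 34.5 and 42.3 TPM in KO, where it overlapped with *Ephb1*. *Ephb4* was the least abundant receptor in every library, with 1.29 and 2.85 TPM in WT and 6.53 and 8.31 TPM in KO. With the longest transcript in place of all exons, *Ephb2* remained the highest and *Ephb4* the lowest, while *Ephb1* came before *Ephb6* in both genotypes and *Ephb3* before *Ephb6* in KO.

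The summed level of the EphB receptors was 155 and 209 TPM in WT and 192 and 214 TPM in KO. KO replicate 1 lay between the WT libraries, and the means differed by 20.8 TPM, less than the SD of 37.9 TPM in WT. An exact two-sided permutation test of 2 against 2 libraries cannot give a p below 0.333 and therefore cannot decide on this difference (p = 0.667). In TMM-scaled CPM, which are not divided by length and in which the long *Ephb2* transcript weighs most, the sum was 505 and 542 in WT and 480.4 and 530.4 in KO. There KO replicate 1 was the lowest library. The TPM were scaled without TMM over all matched genes. These include the mitochondrial and rRNA genes, which made up 10.3% of the counts of WT replicate 1. Their part in the spread of the WT sums in TPM was not tested. *Ephb2* took 44.9% and 43.3% of the summed TPM in WT and 36.4% and 37.0% in KO. *Ephb3* took 11.9% and 12.3% in WT and 18.0% and 19.8% in KO, and *Ephb4* 0.833% and 1.36% in WT and 3.41% and 3.88% in KO. *Ephb6* took 22.4% and 25.4% in WT and 21.8% and 20.6% in KO. For these 4 receptors the genotypes did not overlap, although by a narrow gap for *Ephb6*. In CPM, such a lack of overlap was seen for 53.5% of all genes tested, so that it is common in these libraries. The shares of *Ephb1* ranged from 17.7% to 20.4% over all libraries and overlapped between genotypes. The ratio of *Ephb3* to *Ephb2*, which no scaling between libraries can alter, was 0.264 and 0.284 in WT and 0.494 and 0.534 in KO. For *Ephb4* it was 0.0186 and 0.0315 in WT and 0.0937 and 0.105 in KO. *Ephb1* also had a higher ratio in KO, with 0.448 and 0.410 in WT and 0.562 and 0.508 in KO. For *Ephb6* the genotypes overlapped (0.498 and 0.587 in WT, 0.600 and 0.556 in KO). All these ratios also depend on the level of *Ephb2*.

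**Figure D2:**
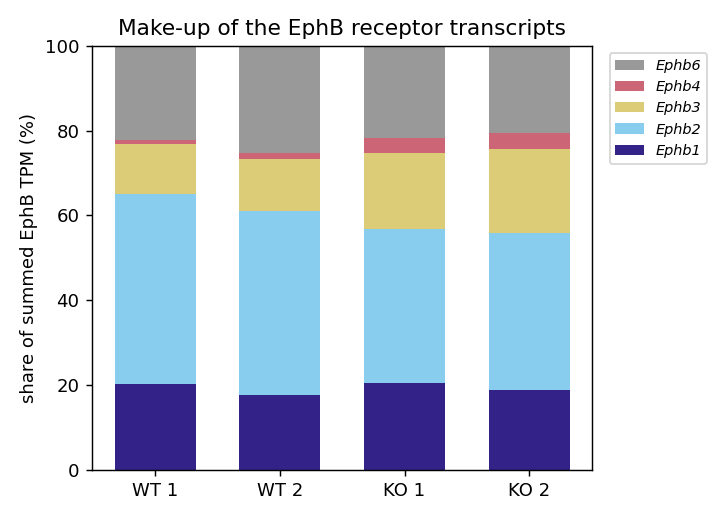
Share of each EphB receptor in the summed EphB TPM (vertical axis, in percent) for the WT and KO libraries (horizontal axis). Each bar is a library and adds up to the whole EphB sum. *Ephb3* and *Ephb4* take a larger share in both KO bars and *Ephb2* a smaller share.

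To ask which receptors differed after *Dnmt1* deletion, the edgeR quasi-likelihood test was run on every gene left by the package's expression filter, 16832 in all, with Benjamini-Hochberg adjustment over them. *Ephb3* and *Ephb4* were higher in KO, and *Ephb1*, *Ephb2* and *Ephb6* did not pass an adjusted p of 0.05. Thus 2 of the 5 receptors were called, both higher, against 7.90% of all genes tested in either direction, 7.33% higher and 0.570% lower. All 5 receptors passed the filter, and all had at least 10 counts in every library. The median log2 fold change of the 5 receptors was 0.07, beside -0.03 over all genes tested. When trends with transcript length and base composition were removed from each library (length/GC correction), 1858 of all genes were higher and 993 lower, in place of 1233 and 96.

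*Ephb4*, which binds ephrin-B2 and is required for the formation of vessels, showed the largest fold change of the 5. It had counts of 18 and 41 (WT) and of 78 and 105 (KO), which corresponds to 2.23 and 4.02 CPM in WT and 9.27 and 11.6 CPM in KO. Both KO libraries lay above both WT libraries, which was the case for 28.3% of all genes tested. The fold change was 3.28 (95% interval 1.81 to 5.96), or 1.71 on the log2 scale (standard error 0.37, edgeR adjusted p = 0.0281). Among all genes tested, 6.92% had a larger log2 fold change. Without KO replicate 2 the log2 fold change was 1.55 and no longer passed (edgeR adjusted p = 0.0942), whereas without WT replicate 1, WT replicate 2 or KO replicate 1 it was 1.37, 2.20 and 1.88 and passed in each.

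The markers of endothelium, the cell type for which *Ephb4* is best known, were low in every library. Their summed level was 22.2 and 24.4 CPM in WT and 25.8 and 29.3 CPM in KO for all 9 markers. Of the 8 tested, 0 passed in edgeR, DESeq2 or limma-voom, while 1 was higher and 2 lower at an unadjusted p under 0.05, where all genes gave 14.6% and 8.01%. The most abundant by mean CPM were *Esam* (log2 fold change 0.71, edgeR adjusted p = 0.258) and *Kdr* (-0.84, edgeR adjusted p = 0.207). Mural markers, whose sum was 305 and 324 CPM in WT and 699 and 758 CPM in KO with *Acta2* at 0 counts in both WT libraries, moved with *Ephb4*, and 6 of 8 were higher, against 7.33% of all genes tested. *Cspg4*, which is also on the precursor list, held 252 and 263 CPM of the WT sums and 320 and 379 CPM of the KO sums. It did not pass (log2 fold change 0.44, edgeR adjusted p = 0.119). The part of the mural markers in the level of *Ephb4* was not tested.

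*Ephb3*, a guidance receptor that also acts in neural progenitors, had counts of 367 and 528 (WT) and of 589 and 766 (KO). The levels were 45.6 and 51.7 CPM in WT and 70.0 and 84.4 CPM in KO, so that the groups did not overlap. The fold change was 1.59 (95% interval 1.22 to 2.06), or 0.67 on the log2 scale (standard error 0.16, edgeR adjusted p = 0.0458). Among all genes tested, 18.1% had a larger log2 fold change. The value lay close to the threshold. With limma-voom the log2 fold change was 0.66 (adjusted p = 0.0508), without KO replicate 1 it was 0.81 (edgeR adjusted p = 0.0961) and without KO replicate 2 it was 0.53 (edgeR adjusted p = 0.554), none of which passed. Without WT replicate 1 or WT replicate 2 it was 0.57 and 0.75, and both passed. Without the mitochondrial and rRNA genes it was 0.67 and passed (edgeR adjusted p = 0.0450). Astrocyte markers, given with the libraries, and radial glia markers (summed level 1033 and 1041 CPM in WT, 1759 and 1645 CPM in KO, 2 of 8 higher against 7.33% of all genes, none at 0 counts) were higher in sum in the libraries in which *Ephb3* and *Ephb4* were higher. *Slc1a3*, which is on both lists, went from 70.3 and 76.5 CPM in WT to 593 and 546 CPM in KO and so made up most of the difference in the radial glia sum (log2 fold change 2.95, adjusted p = 1.21e-05 by edgeR). *Vim*, the next most abundant radial glia marker, had 256 and 312 CPM in WT and 335 and 344 CPM in KO and did not pass (log2 fold change 0.26, adjusted p = 0.349 by edgeR). Their part in the receptor levels was not tested.

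*Ephb2*, which acts in axon guidance and in the assembly of excitatory synapses, had counts of 2635 and 3534 (WT) and of 2262 and 2724 (KO). The levels were 327 and 346 CPM in WT and 269 and 300.0 CPM in KO. WT exceeded KO in each pairing of libraries, a pattern shown by 25.2% of all genes tested. The fold change was 0.845 (95% interval 0.678 to 1.05), or -0.24 on the log2 scale (standard error 0.14), and did not pass the test (edgeR adjusted p = 0.338). Under the length/GC correction it was -0.43 and passed (edgeR adjusted p = 0.00543).

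*Ephb1*, which is known for directing retinal axons at the optic chiasm, had counts of 655 and 804 (WT) and of 706 and 768 (KO). The levels were 81.3 and 78.8 CPM in WT and 83.9 and 84.6 CPM in KO. The KO libraries lay just above the WT libraries. The fold change was 1.05 (95% interval 0.842 to 1.32, edgeR adjusted p = 0.798). The log2 fold change of 0.07 became -0.02 under the length/GC correction. The interval includes differences in either direction.

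The opposite-strand gene *Gm26846*, on chromosome 9 from 102345903 to 102354694, covers the start of *Ephb1* and 2.17% of its exonic bases. It had counts of 85 and 107 (WT) and of 164 and 191 (KO), and it rose by 0.95 ± 0.22 on the log2 scale (standard error, edgeR adjusted p = 0.0386). This gene was singled out after its values were seen. The strand setting of the counting is not given in the sources used here, so that reads of *Gm26846* and of *Ephb1* cannot be told apart where they overlap. *Zan* overlaps 0.711% of the exonic bases of *Ephb4* on the opposite strand and had 54 to 111 counts per library, and differed by -0.31 on the log2 scale (edgeR adjusted p = 0.595).

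*Ephb6*, the kinase-inactive receptor that pairs with other Eph receptors, had counts of 393 and 621 (WT) and of 406 and 453 (KO). The levels were 48.8 and 60.8 CPM in WT and 48.3 and 49.9 CPM in KO, so that the genotypes overlapped. The fold change was 0.894 (95% interval 0.687 to 1.17, edgeR adjusted p = 0.606). Its log2 fold change of -0.16 was -0.32 without WT replicate 1 and -0.00 without WT replicate 2, and passed in neither.

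**Figure D3:**
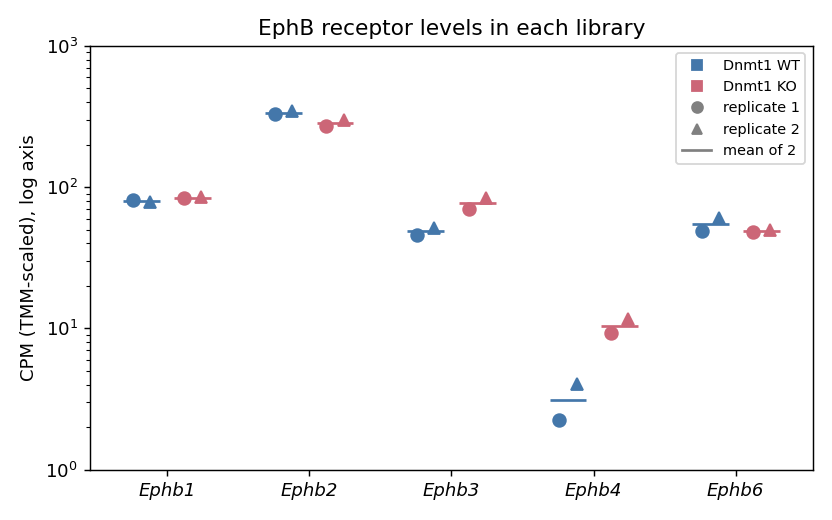
Level of each EphB receptor (horizontal axis) in CPM on a log axis (vertical axis). Blue marks are WT and red marks KO libraries, circles are replicate 1 and triangles replicate 2, and each line is the mean of 2 libraries. The KO marks lie clearly above the WT marks for *Ephb4* (9.27 and 11.6 against 2.23 and 4.02 CPM) and *Ephb3*, and close to them for the others.

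Of the ligands of these receptors, the ephrin-B genes, 0 of 3 passed the edgeR test, while 2 were lower at an unadjusted p under 0.05 (8.01% of all genes), 1 was lower with DESeq2 and 0 passed with limma-voom. *Efnb2*, the ligand of EPHB4, had 171 and 133 CPM in WT and 91.2 and 102 CPM in KO, without overlap. Its fold change was 0.636 (95% interval 0.485 to 0.833), with a log2 fold change of -0.65 that missed the threshold (edgeR adjusted p = 0.0566) and passed with DESeq2 (adjusted p = 0.00977). With the replicate number as a block in edgeR the adjusted p was 0.0114, and over the 11 alternative fits of all libraries it ranged from 1.59e-04 to 0.0835 and passed in 6. It also passed without WT replicate 1 (-0.47, edgeR adjusted p = 0.0124) and without WT replicate 2 (-0.83, edgeR adjusted p = 1.84e-07), but not without KO replicate 1 (-0.56, edgeR adjusted p = 0.407) or KO replicate 2 (-0.73, edgeR adjusted p = 0.224). *Efnb3*, a ligand carried by neurons and midline cells, had 355 and 409 CPM in WT and 284 and 316 CPM in KO, also without overlap (log2 fold change -0.35, edgeR adjusted p = 0.206). Under the length/GC correction it was -0.43 and passed (edgeR adjusted p = 0.00588), as it did at -0.45 without WT replicate 1 (edgeR adjusted p = 0.00123). It did not pass without WT replicate 2 (-0.25), KO replicate 1 (-0.26) or KO replicate 2 (-0.42). *Efnb1*, a ligand of neural progenitors, had 70.9 and 92.2 CPM in WT and 66.8 and 73.8 CPM in KO, and the genotypes overlapped (log2 fold change -0.22, edgeR adjusted p = 0.499). Leaving out WT replicate 1 or WT replicate 2 moved its value to -0.40 or -0.02, without a pass. *Efna5*, an A-class ligand that also binds EPHB2, differed by -0.28 on the log2 scale (edgeR adjusted p = 0.471). Its value depended on single libraries, with -0.02 without WT replicate 1, -0.09 without KO replicate 1, -0.48 without KO replicate 2 and -0.53 without WT replicate 2, where alone it passed (edgeR adjusted p = 0.00613).

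Among the EphA receptors 8 of 9 genes were tested and 0 passed in edgeR, DESeq2 or limma-voom, with 1 higher and 4 lower at an unadjusted p under 0.05 (14.6% and 8.01% of all genes). Their median log2 fold change was -0.45. Of the ephrin-A ligands 4 of 5 were tested, and 0 passed with each of the 3 tools or at an unadjusted p under 0.05 (median log2 fold change -0.46). These counts stand beside those of the EphB receptors as values, and the difference between the classes was not tested.

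**Figure D4:**
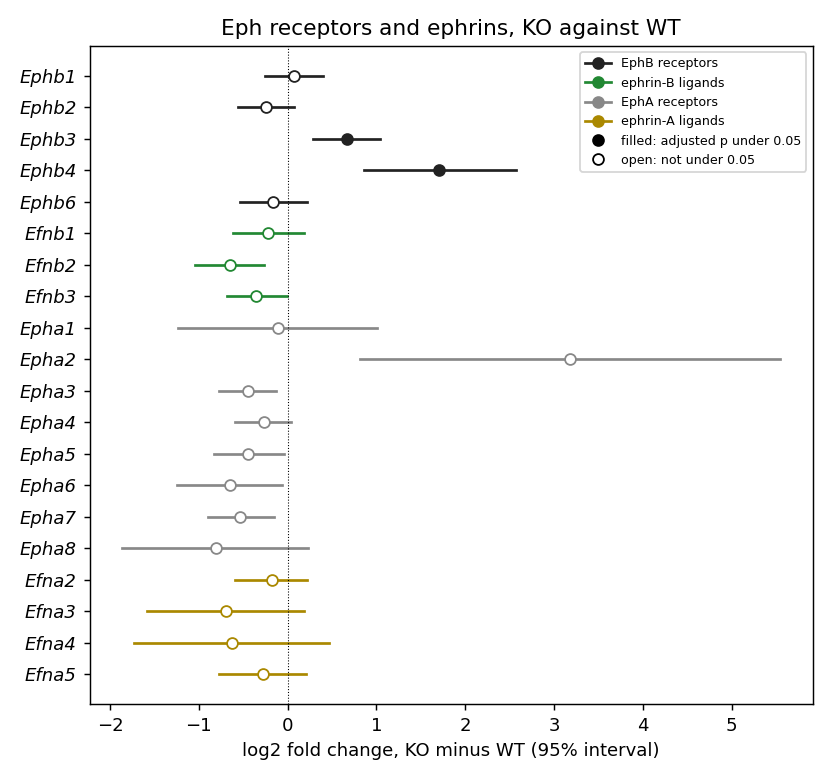
Log2 fold change of KO against WT (horizontal axis) for each tested Eph receptor and ephrin (vertical axis). Points are the edgeR estimates, lines are 95% intervals without correction for multiple testing, and filled points passed an adjusted p of 0.05. *Ephb3* (0.67) and *Ephb4* (1.71) are the filled points.

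Downstream of the receptors, 27 of 28 listed genes of forward signalling were tested. Of these, 2 were higher and 0 lower in KO by edgeR (3 higher and 4 lower at an unadjusted p under 0.05, and 1 lower with DESeq2). Over all genes tested 7.33% were higher by edgeR, which is close to the share of this list. At an unadjusted p under 0.05, 14.6% of all genes were higher and 8.01% lower. By these shares the list held fewer higher and more lower genes. In CPM, WT exceeded KO in each pairing of libraries for 13 of the 27 genes (25.2% of all genes). The reverse held for 5 of the 27 (28.3% of all genes). Whether the list differs from all genes was not tested. The list had a median log2 fold change of -0.12. The 2 called genes were *Vav3* and *Sdc2*. *Vav3*, a guanine nucleotide exchange factor that is recruited to active Eph receptors, had 13.7 and 14.4 CPM in WT and 28.5 and 28.6 CPM in KO (log2 fold change 1.03, standard error 0.19, edgeR adjusted p = 0.0141). *Sdc2*, which encodes a syndecan phosphorylated by EPHB2 in dendritic spines, had 11.3 and 10.2 CPM in WT and 21.0 and 25.9 CPM in KO (log2 fold change 1.13, standard error 0.23, edgeR adjusted p = 0.0200). The other 25 tested genes, among them adaptors and Src family kinases, did not pass.

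Genes of reverse signalling and its PDZ adaptors gave 0 calls among the 6 tested in edgeR, DESeq2 or limma-voom (1 higher and 1 lower at an unadjusted p under 0.05, median log2 fold change -0.02). The listed symbol *Afadn* had no match, which does not show that the gene is absent from the count lists. Genes of receptor cleavage, dephosphorylation and turnover gave 0 calls among 9 in edgeR and limma-voom and 1 lower in DESeq2, with 1 lower at an unadjusted p under 0.05 and a median log2 fold change of -0.26. The membrane partners *Ryk*, *Grin1* and *Grin2b* gave 0 calls in each of these tools and at an unadjusted p under 0.05 (median log2 fold change -0.05). Beside these counts, 14.6% of all genes tested were higher and 8.01% lower at an unadjusted p under 0.05, and 1.47% were lower with DESeq2.

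Finally, genes of like level were ranked by the likeness of their pattern to that of each receptor, measured as the Euclidean distance between centred log2 CPM values over the 4 libraries. The nearest to *Ephb3* were *Dagla* at 0.0325 and *Col4a1* at 0.0544, out of 4722 genes with a mean CPM within 2-fold. For *Ephb4* they were *Lmcd1* at 0.0800 and *Pttg1* at 0.110 out of 3761 genes. *Brd9* (0.0364) and *Pip4k2b* (0.0390) were nearest to *Ephb2*, *Ski* (0.00716) and *Osbp* (0.0124) to *Ephb1*, and *Thap11* (0.0172) and *Pld3* (0.0198) to *Ephb6*. The distances rest on 4 libraries and are a description of them.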

How the data were processed

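For each library the authors deposited a list of raw counts by Ensembl gene, without normalization. The submitters' processing notes name CASAVA 1.8.2, STAR 2.5.2a and featureCounts 1.5.0-p1 with the builds mm10 and GRCm38. The annotation version, the strand setting and the treatment of reads that match several places are not given in the sources used here. MeDIP data were not analysed here. The sample titles gave genotype and replicate number. Within each genotype the libraries differed beyond sampling noise, with a chi-square divided by its degrees of freedom of 57.2 for WT and 4.28 for KO, so none was a copy of another.

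Of 55573 gene identifiers, 55480 were matched to GENCODE M21. After edgeR's expression filter and TMM normalization, genotypes were compared with edgeR's quasi-likelihood test with genotype as the only term (edgeR 4.0.16, limma 3.58.1, DESeq2 1.42.0, R 4.3.3). Each standard error and 95% interval follows from the fold change and its F statistic. CPM were computed on TMM-scaled library sizes, and TPM with the union of annotated exons. A floor of 3 counts lay at 0.294 to 0.372 CPM and covers counting error only. The procedures were tested on simulated counts.

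All receptors, the ephrin-B ligands and *Efna5* are named, and from each other pathway list the called members, at most 4 a direction by smallest p. Added to these are *Dnmt1*, the 2 genes most like each receptor and at most 2 genes per marker list, those with the highest mean CPM. *Hmx3*, *Gfap* and *Acta2*, *Afadn*, the other membrane partners and the genes overlapping a receptor were named after their values were seen. The receptors and lists were chosen with earlier results of these data known. The alternatives were DESeq2, limma-voom, other scalings, other filters, a replicate block, a length/GC correction, libraries left out in turn and other thresholds.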

Additional observations from a re-analysis of the deposited data

How the results depend on the processing

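The log2 fold changes of *Ephb3* and *Ephb4* stayed positive in every alternative, from 0.50 to 0.77 and from 1.58 to 1.81 over the 11 alternative fits of all libraries. *Ephb4* passed in all 11 and *Ephb3* in all but limma-voom (0.66, 1 receptor called). At an adjusted p under 0.01, 0 receptors were called (0.67 and 1.71). With each library left out, 0 to 2 receptors were called. The log2 fold changes then ran from 0.53 to 0.81 for *Ephb3* and from 1.37 to 2.20 for *Ephb4*. The genotype left with 1 library is assumed there to vary like the other, and without a WT library, as without a filter, the prior degrees of freedom were infinite, and p-values then ignored the spread of the single gene. Without a KO library they were 669.6 and 435, which leaves that spread little weight. The length and GC correction, alone or with the replicate block, gave -0.02 for *Ephb1* and -0.43 for *Ephb2*, which then passed. The cause was not tested.

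The pathway lists together gave 14 calls, all higher, of which 12 were kinases outside the Eph family. There were 22 without a filter (18 higher, 4 lower), 23 with the replicate block (18 and 5), 25 with block and correction (18 and 7), 8 at an adjusted p under 0.01 (all higher) and 8 (without KO replicate 2, all higher) to 37 (without WT replicate 2, 19 and 18) with a library left out. All genes gave 1329 calls, 2363 without a filter, 883 with at least 10 counts in every library, 2244 with the replicate block, 2851 with the correction, 3128 with both, 740 at an adjusted p under 0.01 and 951 (without KO replicate 2) to 4209 (without WT replicate 2) with a library left out. With all libraries kept, the split of 1233 higher and 96 lower became 1790 and 573 without a filter. It was 1625 and 619 with the replicate block and 1858 and 993 with the correction. The share of lower calls thus depends on the fit. It also rose without either WT library, where the prior degrees of freedom were infinite, so that the library and the fit cannot be told apart there. Library size as the only scaling moved the median log2 fold change of all genes from -0.03 to 0.08. Same-numbered libraries deviated together with a correlation of 0.137 across genes over 2 pairs, which does not establish a pairing. The replicate block changed the call of *Efnb2* but of no receptor, and gave 0.66 for *Ephb3* and 1.75 for *Ephb4*. With 18 and 41 counts in WT, depth limits *Ephb4* most.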

Other observations

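Among receptor tyrosine kinases outside the Eph family, 37 of 44 genes were tested, and 12 were higher and 0 lower in KO by edgeR, beside 7.33% higher and 0.570% lower over all genes tested. At an unadjusted p under 0.05, 15 were higher and 1 lower, beside 14.6% and 8.01% of all genes. DESeq2 gave 12 higher and 0 lower, and limma-voom 10 higher and 0 lower. Their median log2 fold change was 0.55. *Mertk*, a receptor for the uptake of dying cells and debris, had counts of 8 and 2 (WT) and of 1938 and 1889 (KO) (log2 fold change 8.60, edgeR adjusted p = 6.33e-06). *Fgfr3*, a fibroblast growth factor receptor that is also on the astrocyte marker list, had 25.1 and 19.6 CPM in WT and 373 and 369 CPM in KO (log2 fold change 4.06). *Fgfr2* and *Egfr* followed by p-value, with log2 fold changes of 3.01 and 3.05. Among the other called kinases are members of the mural and microglia marker lists. The kinases were listed with earlier results of these data known, and whether they differ from the EphB receptors as a group was not tested.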
